A study of Mus musculus with 24 samples.

Results

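Myocd and 9 genes that lie around it on mouse chromosome 11, in the region affected in megabladder (mgb) mice, were followed in 24 kidneys. The genes were taken by name, with earlier results of these data known, as Tekt3, Pmp22, Hs3st3b1, Cox10, Hs3st3a1, Elac2, Arhgap44, Myocd, Map2k4 and Dnah9. Every array probe whose transcript accession belonged to 1 of these 10 genes was used, which gave 12 of the 55681 probes on the array. The kidneys came from male mice labelled young adult, which the study's methods place shortly after weaning age, with 6 control kidneys of the genotype mgb+/+ and 18 of the genotype mgb-/-. The mgb-/- kidneys had been sorted by ultrasound, on how much parenchyma was left, into 7 mild, 5 moderate and 6 severe. Each array held the Cy3-labelled RNA of 1 whole kidney.

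Myocardin, the product of Myocd, is a cofactor that serum response factor recruits to CArG boxes, short elements in the promoters of smooth muscle genes. It drives the contractile program of smooth muscle in the heart outflow, vessels and bladder. Mice homozygous for the mgb allele, a transgene insertion that altered chromosome 11 near Myocd, lack normal bladder smooth muscle, and their distended bladder leads to hydronephrosis. The allele is present in every cell, so a kidney carries both the altered chromosome and the obstruction, and these cannot be told apart here. In whole kidneys, fewer cells of a type and less RNA per cell cannot be told apart either.

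Levels are given as log2 of the signal minus the array's 75th percentile, so that 0 is the 75th percentile of that array and each unit is a doubling. Each array had 55.4% to 70.8% of its probes well above background, no spot was saturated, and the arrays correlated with each other at 0.922 to 0.990. Markers of the proximal tubule, podocyte, thick limb and collecting duct were measured on the arrays of every group, as befits kidney. The summed adrenal gland markers, in units of the 75th percentile, were 78.2 in mild replicate 4 and 72.4 in moderate replicate 1, against at most 1.81 in the other 22 kidneys. The labels leave unsaid whether any mouse gave both its kidneys, so the p-values measure only the spread between these kidneys.

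Of the 12 probes, 9 probes of 7 genes were well above background on all 24 arrays and were tested with limma, with Benjamini-Hochberg adjustment over the 38848 probes that passed the filter. Between mgb-/- and control kidneys 2 of the 9 probes passed an adjusted p of 0.05, both of Pmp22 and both higher, while 11.7% of all tested probes passed in either direction and 4.64% were higher. By grade, 0 of the 9 passed in mild kidneys (background 5.20%), 0 in moderate (1.05%) and 2 in severe (14.3%), with 3, 4 and 6 at an unadjusted p under 0.05. Over all tested probes, 18.4%, 17.0% and 22.8% had an unadjusted p no higher than the highest of these 3, 4 and 6. Between grades 0 of 9 passed, where 0.00% of all probes passed from mild to moderate, 0.00257% from moderate to severe and 0.458% from mild to severe, and 2, 0 and 2 of the 9 had an unadjusted p under 0.05. An unadjusted p no higher than these was held by 6.46% of all tested probes from mild to moderate and 5.19% from mild to severe. In none of the 9 were the mgb-/- and control kidneys free of overlap, which held for 0.778% of the probes measured on every array. By the brightest probe of each, 1 of the 7 genes passed, Pmp22, near the 12.4% of all genes that passed. The median change over the 7 genes was 0.05, beside 0.01 over all genes.

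The mean Myocd level was no lower in mgb-/- than in control kidneys. Its 1 probe (A_55_P2021540) read a low level, and the files do not give the probe's place in the transcript, so the level is no check of the altered allele. In control kidneys the level ranged from -4.81 to -2.29 with a median of -4.32. The 7 mild kidneys ranged from -4.91 to -3.27 with a median of -3.88, overlapping the controls, with 5 of the 7 above the mean of the controls. The 5 moderate kidneys read -2.89, -3.44, -2.32, -3.31 and -3.82, and the 6 severe kidneys ranged from -4.20 to -2.68 with a median of -2.95. Control replicate 6, at -2.29, lay above every other kidney of the series, and the remaining 5 controls lay at or below -4.19.

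Over all kidneys the Myocd level was 0.59 higher in mgb-/- than in control kidneys (log2, SE 0.33, 1.51-fold), with 15 of 18 mutant kidneys past the mean of the controls. The change did not pass the test (adjusted p = 0.258, limma), with a 95% interval from -0.10 to 1.28. By grade, the difference from control was 0.06 (SE 0.35) in mild, 0.92 (SE 0.38) in moderate and 0.94 (SE 0.36) in severe kidneys, with adjusted p-values of 0.960, 0.215 and 0.0830. Severe exceeded mild kidneys by 0.89 (SE 0.35, adjusted p = 0.374) and moderate exceeded mild by 0.86 (SE 0.37, adjusted p = 0.686), so neither step between grades passed. Severe minus moderate was 0.025, with a 95% interval from -0.77 to 0.82, too wide to call the grades alike. Most severe and moderate kidneys read above most mild and control kidneys, with overlap on both sides.

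The Myocd values rested on control replicate 6. Without it the change was 0.95 (SE 0.30, 1.93-fold, adjusted p = 0.0537) over all mgb-/- kidneys. The severe kidneys then rose by 1.30 (SE 0.29, 2.47-fold, adjusted p = 0.0132), beside 10.8% of probes called in that fit. The moderate and mild differences became 1.28 (adjusted p = 0.0722) and 0.42 (adjusted p = 0.470). Severe replicate 6 also decided a call, since without it the severe difference was 1.16 (adjusted p = 0.0232). Within the 3 slides, each with 2 control and 6 mgb-/- kidneys, the difference was 0.94, 0.78 and 0.06, and the slide of 0.06 held control replicate 6. In that kidney Cnn1, Myh11, Synpo2, Mylk and Actg2, 5 of the 17 smooth muscle genes described further on, also read highest of the 6 controls. Cnn1 read 1.56, at most 1.23 in the other controls, but the margin was slim for Mylk (0.35 against 0.31) and Actg2 (0.24 against 0.23). The rest of the list did not read highest there, with Srf at 0.69 against up to 1.17 in the other controls. How often this kidney read highest over all genes was not counted. The summed level of that list, 75.3 in units of the 75th percentile, was second to that of control replicate 5 (82.0).

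**Figure D1:**
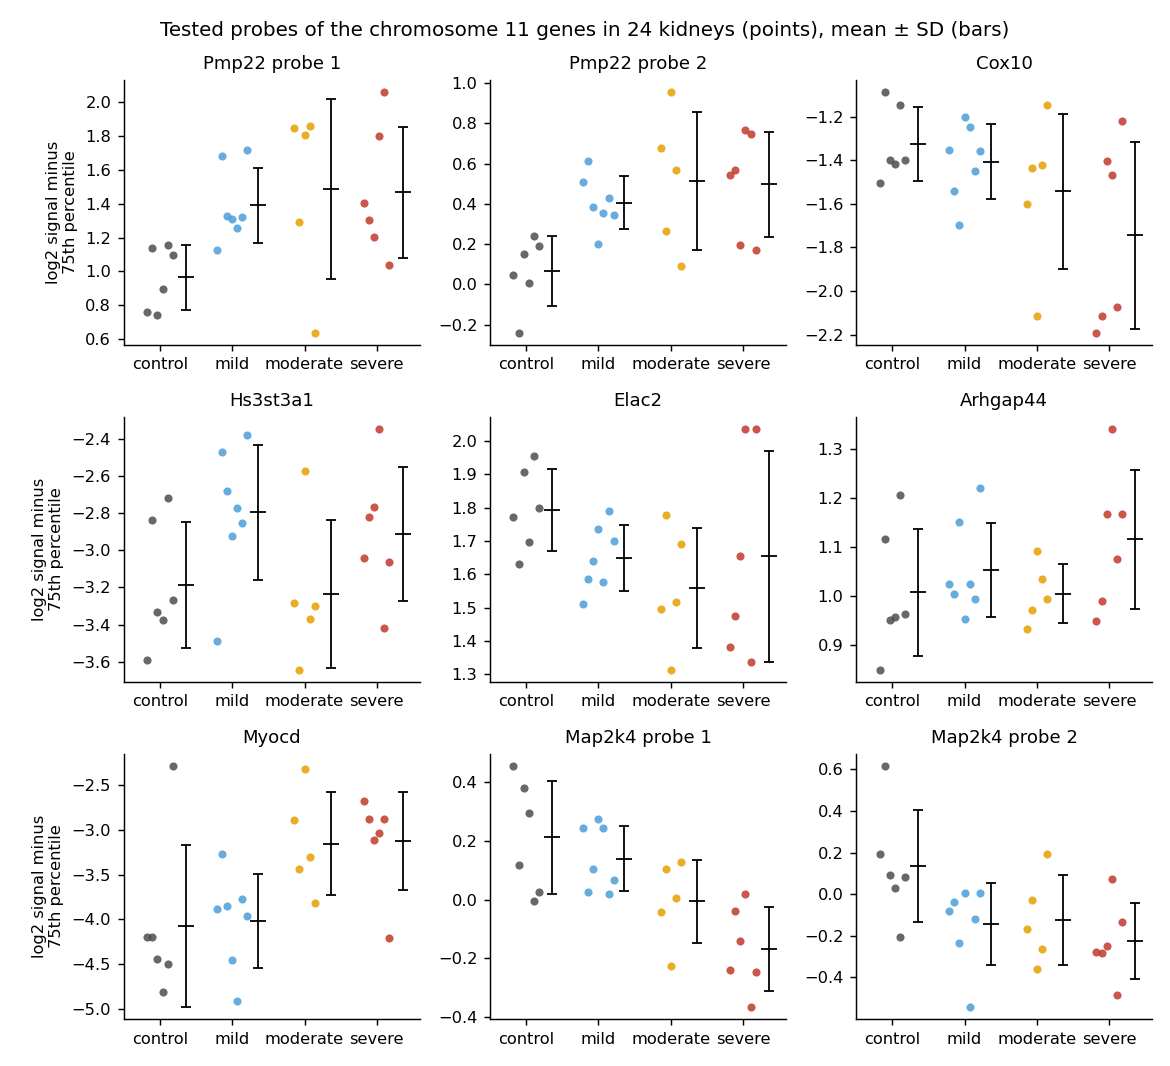
Level of each of the 9 tested probes (log2 signal minus the array's 75th percentile, vertical axis) in each kidney (points) of the control, mild, moderate and severe groups, with mean and SD as black bars. The Myocd panel shows 1 control kidney at -2.29, far above the other 5 controls, and the Pmp22 panels show mgb-/- kidneys mostly above the controls.

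Pmp22, the 1 gene of the 7 with a call over all mgb-/- kidneys, encodes a small membrane protein of compact peripheral myelin. It is also made in many epithelia and mesenchymal cells. Both probes of Pmp22 rose in mgb-/- kidneys. Probe 2 (A_55_P2040168) ranged from -0.24 to 0.24 in controls with a median of 0.10. It ranged from 0.20 to 0.62 in mild kidneys (median 0.38) and from 0.17 to 0.77 in severe kidneys (median 0.56), and read 0.68, 0.27, 0.96, 0.57 and 0.09 in the moderate kidneys. The mean of the controls was exceeded by all 18 mutant kidneys and the highest control by 14. Probe 1 (A_55_P2040170), the brighter, ranged from 0.74 to 1.16 in controls with a median of 1.00. It ranged from 1.13 to 1.72 in mild (median 1.32) and from 1.04 to 2.06 in severe kidneys (median 1.35). The moderate kidneys read 1.85, 1.29, 1.81, 1.86 and 0.64, and that last kidney was the lowest of the series, so that 17 of 18 mutant kidneys exceeded the mean of the controls.

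The change was 0.40 for probe 2 (SE 0.11, 1.32-fold, adjusted p = 0.0229) and 0.48 for probe 1 (SE 0.16, 1.39-fold, adjusted p = 0.0461). It was of like size in each grade, at 0.34, 0.45 and 0.43 for probe 2 and 0.43, 0.52 and 0.50 for probe 1 in mild, moderate and severe kidneys. Only probe 2 in severe kidneys passed among these (adjusted p = 0.0409), where 5.85% of all probes were called higher, and this call was lost in 17 of 38 alternatives (adjusted p up to 0.299). No step between grades passed for either probe, with severe minus mild at 0.09 for probe 2 (95% interval -0.18 to 0.37) and 0.08 for probe 1 (-0.32 to 0.47). Within the 3 slides probe 2 differed by 0.45, 0.38 and 0.37 and probe 1 by 0.70, 0.21 and 0.53. Scaling by the median of each array lowered all changes and ended the call of probe 2 (0.25, adjusted p = 0.221), as did leaving out control replicate 2 (0.34, adjusted p = 0.0711) or control replicate 4 (0.39, adjusted p = 0.0537). With replicate number as a block neither probe passed (adjusted p = 0.0595 and 0.108 for probe 2 and probe 1), and with slide as a block probe 1 did not (adjusted p = 0.0576). The call of probe 1 was less firm: leaving out any of 16 of the 24 kidneys ended it, with changes of 0.43 to 0.52, and so did leaving out both kidneys with adrenal gland markers (0.46, adjusted p = 0.0643).

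RefSeq gives Pmp22 4 start sites. The windows of 250 bases before to 50 bases after the most upstream pair are shown since Pmp22 was the called member. Srf, the partner of myocardin, also rose. Its window stands beside those of Pmp22 because it holds CArG boxes of the exact pattern counted, here in capitals (GRCm38.p6, 5′ to 3′ on the gene's strand).
Pmp22 window 1, chr11:63128732-63129031, plus strand: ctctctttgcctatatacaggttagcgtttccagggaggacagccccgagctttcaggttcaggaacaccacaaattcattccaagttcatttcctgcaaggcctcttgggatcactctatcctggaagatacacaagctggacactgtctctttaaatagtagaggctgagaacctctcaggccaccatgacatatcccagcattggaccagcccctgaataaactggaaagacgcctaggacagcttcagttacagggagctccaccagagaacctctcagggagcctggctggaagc
Pmp22 window 2, chr11:63131207-63131506, plus strand: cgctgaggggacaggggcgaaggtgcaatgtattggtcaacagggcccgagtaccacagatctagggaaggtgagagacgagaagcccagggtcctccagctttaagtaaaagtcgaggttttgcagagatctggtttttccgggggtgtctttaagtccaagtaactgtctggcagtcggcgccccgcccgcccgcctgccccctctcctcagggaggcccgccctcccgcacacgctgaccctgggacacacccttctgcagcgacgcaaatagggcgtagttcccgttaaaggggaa
Srf, chr17:46556113-46556412, minus strand: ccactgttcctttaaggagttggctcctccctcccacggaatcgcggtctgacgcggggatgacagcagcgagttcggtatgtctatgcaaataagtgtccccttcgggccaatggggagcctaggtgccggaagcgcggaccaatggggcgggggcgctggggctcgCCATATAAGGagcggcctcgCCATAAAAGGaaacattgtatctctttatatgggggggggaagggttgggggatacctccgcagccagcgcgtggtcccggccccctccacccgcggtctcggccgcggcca
A CArG box was counted as 2 C, 6 letters that are each A or T, and 2 G, a pattern that reads alike on both strands. Srf held 2 of them. None of the 13 windows of the 9 members with an entry (all but Myocd) held such a run, beside 1.63% of the 32851 windows of all genes. Of the 20 windows of 15 genes in the smooth muscle list, only that of Srf did, and Tagln, Myh11 and Actg2 had no window. These counts cover the exact pattern within the windows only. Smooth muscle genes such as Acta2 and Cnn1 held none either, so the absence in the Pmp22 windows cannot be read as a lack of CArG boxes.

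Map2k4, a kinase that phosphorylates and activates JNK and p38, had a lower mean level in mgb-/- kidneys by both probes, and neither passed over all kidneys. Probe 2 (A_55_P2018292) ranged from -0.20 to 0.62 in controls (median 0.09), from -0.54 to 0.0065 in mild (median -0.08) and from -0.48 to 0.07 in severe kidneys (median -0.26). The moderate kidneys read -0.17, -0.03, -0.36, -0.26 and 0.19. Its change was -0.30 (SE 0.11, 0.812-fold, adjusted p = 0.0635), and 17 of 18 mgb-/- kidneys were below the control mean. Probe 1 (A_55_P2098335) ranged from -0.0033 to 0.45 in controls (median 0.21), from 0.02 to 0.28 in mild (median 0.10) and from -0.37 to 0.02 in severe kidneys (median -0.19). The moderate kidneys read -0.04, 0.10, -0.22, 0.0037 and 0.13. In severe kidneys 5 of 6 lay below the lowest control, and no mild kidney did.

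Probe 1 of Map2k4 fell by 0.38 in severe kidneys (SE 0.10, adjusted p = 0.0171), 1 of the 2 calls among the 9 probes in that comparison, where 8.45% of all probes were called lower. Its change was -0.07 in mild and -0.22 in moderate kidneys (adjusted p = 0.755 and 0.279), and severe minus mild was -0.31 (SE 0.10, adjusted p = 0.216). Probe 2 differed little by grade, at -0.28, -0.26 and -0.36, so the probes disagree on a gradient. The severe call of probe 1 was lost when only control and severe kidneys were fitted (-0.38, adjusted p = 0.0849) and when arrays were scaled on probes detected on all arrays (-0.26, adjusted p = 0.0588). Over all mgb-/- kidneys probe 2 had an adjusted p under 0.05 in 5 of 37 alternatives, the lowest 0.0065 (limma). Among them were the fits without control replicate 5 (-0.37, adjusted p = 0.0373) and without moderate replicate 5 (-0.32, adjusted p = 0.0359). Probe 1 did so in 1 of 38 (adjusted p = 0.0433).

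**Figure D2:**
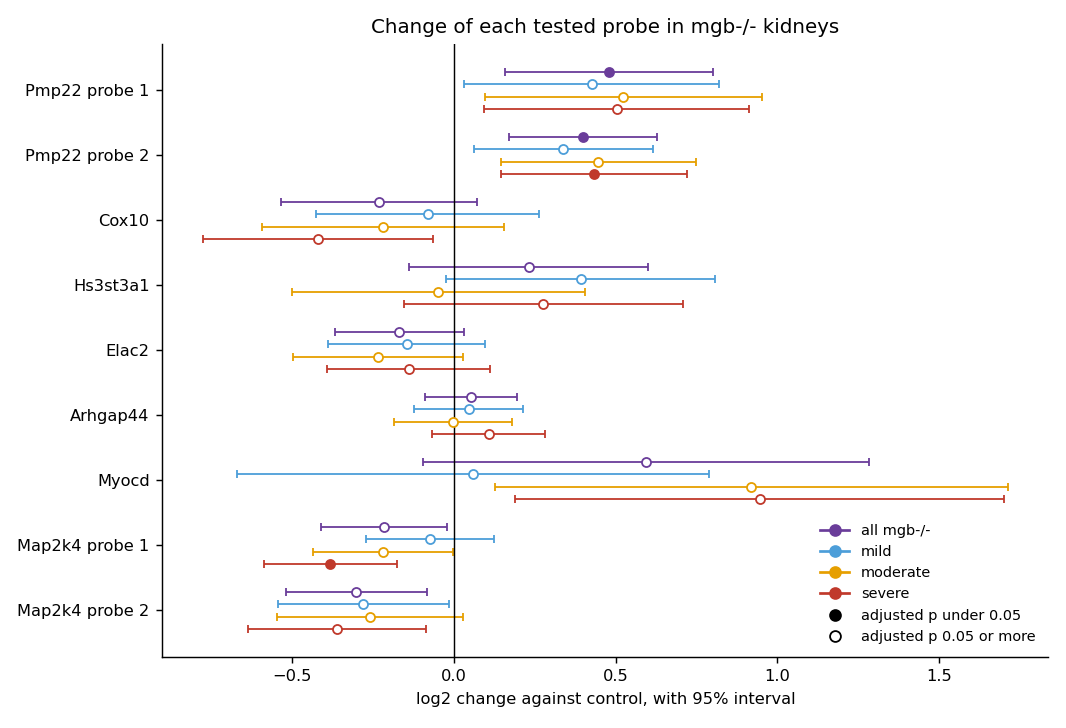
Log2 change of each tested probe against control kidneys (horizontal axis, point) with its 95% interval (bar), for all mgb-/- kidneys and for each grade, filled where the adjusted p was under 0.05. The intervals of both Pmp22 probes lie above 0 in every grade, and that of Myocd spans 0 in mild but not in moderate or severe kidneys.

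The mitochondrial members had lower mean levels that did not pass the test. Cox10, the farnesyltransferase that makes heme O for cytochrome c oxidase, ranged from -1.50 to -1.09 in controls and from -2.19 to -1.15 in mgb-/- kidneys. Its change was -0.23 (SE 0.15, adjusted p = 0.324), with -0.08, -0.22 and -0.42 in mild, moderate and severe kidneys. The lowest adjusted p among these was 0.102, in severe kidneys, where 3 of 6 lay below the lowest control. Severe replicate 6 read -1.22, and without it the severe difference was -0.52 (adjusted p = 0.0272). Elac2, the RNase Z that trims the 3′ end of tRNA precursors, ranged from 1.63 to 1.95 in controls and from 1.31 to 2.04 in mgb-/- kidneys. Its change was -0.17 (SE 0.10, adjusted p = 0.271), 9 of 18 mgb-/- kidneys lay below the lowest control and 2, both severe, lay above the highest.

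Over all mgb-/- kidneys the mean levels of Hs3st3a1 and Arhgap44 were higher, and neither passed the test. Hs3st3a1, a sulfotransferase that adds the 3-O-sulfate to heparan sulfate, ranged from -3.59 to -2.72 in controls and from -3.64 to -2.35 in mgb-/- kidneys. Its change was 0.23 (SE 0.18, adjusted p = 0.431), with 0.39, -0.05 and 0.28 by grade. Within the slides it was 0.44, -0.29 and 0.54, so its direction was not shared by them. Array quality weights made it a call at 0.44 (adjusted p = 0.0147). Arhgap44, a GTPase-activating protein of Rac and Cdc42, ranged from 0.85 to 1.21 in controls and from 0.93 to 1.34 in mgb-/- kidneys. Its change of 0.05 (SE 0.07, adjusted p = 0.664) had a 95% interval from -0.09 to 0.20, the narrowest of the 9, and turned to -0.10 when arrays were scaled by the median.

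Tekt3, a tektin of ciliary and flagellar microtubules, Dnah9, an outer arm dynein heavy chain of motile cilia, and Hs3st3b1, the second 3-O-sulfotransferase of this stretch, had 1 probe each. None of the 3 probes was well above background on any of the 24 arrays, so no change is given for them. Their readings were -8.43 to -6.80 for Tekt3, -8.55 to -6.55 for Hs3st3b1 and -7.90 to -5.65 for Dnah9, which is near the dimmest signal that counted as well above background.

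Across kidneys the members did not move as a block. As a description over 24 kidneys that share arrays, scaling and the mix of cells, both Pmp22 probes correlated at 0.80 and both Map2k4 probes at 0.50. Myocd correlated with Pmp22 probe 2 at 0.64 but with Cox10 at -0.67 and with Map2k4 probe 1 at -0.66. Cox10 and Elac2 correlated at 0.66, and Hs3st3a1 and Arhgap44 at 0.67. The 36 pairs of probes ran from -0.68, for Pmp22 probe 2 and Cox10, to 0.80. With group means removed, Cox10 and Elac2 stood at 0.70 and Myocd and Cox10 at -0.57.

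The genes with the levels most like those of Myocd, out of 16281 named genes by their brightest probe, were Rgs7bp (r = 0.83), Cnn1 (0.80), Cd200r3 (0.79), Gpx2 (0.79) and Fbln1 (0.78). The Cd200r3 probe was well above background on 0 of 6 control and 7 of 18 mgb-/- arrays, so its value rests partly on readings near background. Cnn1 encodes calponin, a thin filament protein of smooth muscle, and Fbln1 encodes fibulin, a matrix protein. Without control replicate 6 these values were 0.85, 0.84, 0.83, 0.87 and 0.87. The most opposed were Supt3 (-0.78), Emg1 (-0.77) and Tox4 (-0.77). For Pmp22 probe 1 the closest were Zcchc24 (0.93), Tshz2 (0.93), Mrtfb (0.92), Garnl3 (0.92) and Meis1 (0.92). Mrtfb encodes a myocardin-related cofactor of SRF. The most opposed to Pmp22 were Tmem178 (-0.89), Ubxn10 (-0.88) and Rffl (-0.88).

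**Figure D3:**
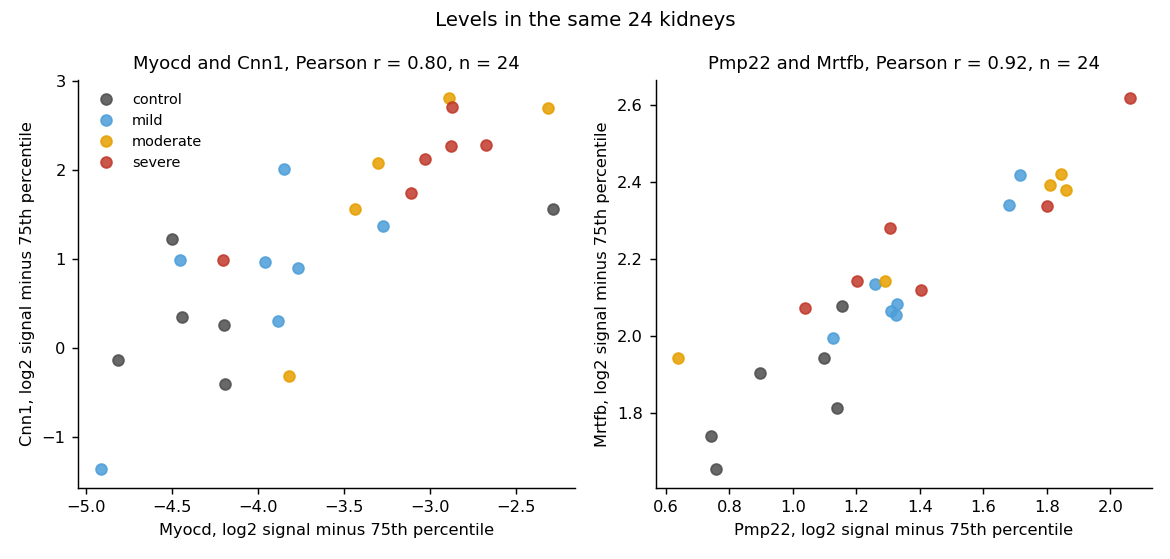
Level of Myocd against Cnn1 (left) and of Pmp22 probe 1 against Mrtfb (right) in the same 24 kidneys, one point per kidney coloured by group, both axes as log2 signal minus the array's 75th percentile. Pearson r is 0.80 and 0.92, and the control kidney at a Myocd level of -2.29 reads 1.56 for Cnn1.

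Along the chromosome, 38 genes of the RefSeq table start between Tekt3 and Dnah9, of which 13 were on the array and 10 were tested. The 3 tested genes that are not members did not pass: 2810001G20Rik at 0.06, F930015N05Rik at 0.37 and Zkscan6 at 0.01 (adjusted p = 0.722, 0.394 and 0.940). By the brightest probe of each gene, 12.4% of 27971 genes passed, where transcripts without a RefSeq symbol were counted by their own identifier. Beyond the end at Tekt3, 4 of the 10 nearest tested genes passed and all 4 were higher, with a median change of 0.37 over the 10. Named after their values were seen, they were Trim16 (1.37, adjusted p = 0.00126), Zfp286 (0.94, adjusted p = 0.0126), Fbxw10 (0.63, adjusted p = 0.0223) and Mmgt2 (0.38, adjusted p = 0.0240). Trim16, a ubiquitin ligase of the tripartite motif family, rose from a mean of -3.70 in controls to -2.33, with each of the 18 mutant kidneys higher than the mean of the controls.

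Beyond the end at Dnah9 the 10 nearest tested genes had a median change of -0.13. Gas7 rose (0.77, adjusted p = 0.0323), and Myh1, a skeletal muscle myosin, was the other gene called, both named after their values were seen. The Myh1 probe was well above background on 5 of 6 control and 4 of 18 mgb-/- arrays, so it was tested because of the controls. Its fitted change of -1.70 (adjusted p = 0.0446) is set by readings near background, ran from -2.00 to -0.39 over the alternatives and lost its call in 17 of 37. Over the members, the genes between them and the 20 flanking genes, 7 of 30 passed, Myh1 included. This count fell to between 2 and 4 without control replicate 1, 2, 3, 4 or 6. Calls also fell over the whole array without control replicate 6, from 11.7% to 7.7% of all probes. The share without each of the others is not given. Zfp286 and Trim16 passed in all 24 fits that left out a kidney.

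**Figure D4:**
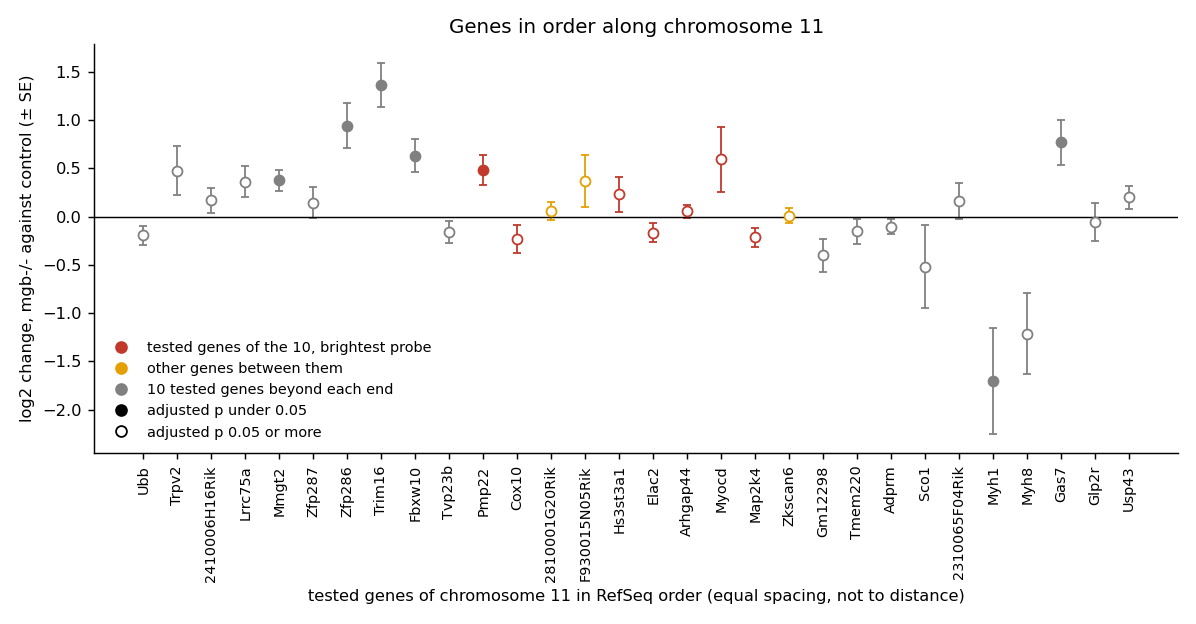
Log2 change between mgb-/- and control kidneys (vertical axis, point, with SE) of the 30 tested genes in their order along chromosome 11, evenly spaced. Filled points passed an adjusted p of 0.05: 4 grey genes on the left, Pmp22 among the members, and Gas7 and Myh1 on the right. The Myh1 probe was tested because of the controls, and its change is set by readings near background.

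The pathways of the members were read from lists of their partners, chosen with earlier results of these data known. Members were left out and each gene was taken by its brightest probe. The counts of the lists stand beside the 12.4% of all genes that passed in either direction. Among cofactors of myocardin and smooth muscle genes, 5 of 17 tested genes rose, none fell, and the median change was 0.47 beside 0.01 over all genes. Tagln, the actin-binding transgelin, rose by 1.28 (SE 0.30, adjusted p = 0.00934). Acta2, smooth muscle actin, rose by 1.20 (SE 0.34, adjusted p = 0.0244), Srf by 0.66 (SE 0.17, adjusted p = 0.0155) and Mrtfb by 0.36 (SE 0.09, adjusted p = 0.0143). The fifth was Tpm2, a tropomyosin, at 0.83 (adjusted p = 0.0337). The other 12 had changes from 0.05 to 1.46 without passing, with Actg2 at 1.46 (SE 0.74, adjusted p = 0.203) and Cnn1 at 0.97 (SE 0.47, adjusted p = 0.181). Under scaling by the median 1 of the 17 passed, with a list median of 0.32 against -0.14 over all genes.

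Summed over the 16 genes of this list measured on every array, in units of the 75th percentile, the level was 55.9 to 82.0 in controls and 83.4 to 159 in mild kidneys. It was 59.2 to 238 in moderate kidneys, which overlapped the controls, and 84.7 to 248 in severe kidneys. The lowest mild and severe kidneys lay just above the highest control. How often other gene sums separate in this way was not counted. Bright genes weigh most in the sum, and the brightest in controls, Csrp1 (mean level 4.82), did not pass (0.83, adjusted p = 0.321, limma). The shorter list of smooth muscle markers, which lacks Csrp1, overlapped in mild and moderate kidneys. It summed to 14.7 to 28.7 in controls, 26.1 to 51.4 in mild, 16.1 to 100 in moderate and 36.4 to 116 in severe kidneys. Markers of other cell types were read beside these, with pass counts over all mgb-/- against control kidneys. Urothelial markers summed to 6.14 to 18.3 in controls, 4.73 to 56.9 in mild, 13.6 to 52.0 in moderate and 70.2 to 230 in severe kidneys. Of the urothelial markers 1 of 5 passed, Upk1b (2.09, adjusted p = 0.0483), and all 5 had an unadjusted p under 0.05 (limma). Proximal tubule markers summed to 656 to 805 in controls, 570 to 702 in mild, 484 to 880 in moderate and 207 to 740 in severe kidneys. Of these markers 0 of 5 passed (limma, 2 at an unadjusted p under 0.05). Fibroblast markers were summed over Pdgfra and Pdgfrb, measured on every array. The sum was 2.80 to 4.06 in controls, 3.12 to 6.11 in mild, 1.58 to 6.35 in moderate and 4.78 to 9.56 in severe kidneys. Of the fibroblast markers 1 of 4 passed, Dcn (0.66, adjusted p = 0.0465), and all 4 had an unadjusted p under 0.05. Collecting duct markers summed to 41.9 to 68.1 in controls, 69.4 to 117 in mild, 37.3 to 105 in moderate and 61.4 to 117 in severe kidneys. Here 1 of 2 passed, Aqp2 (0.91, adjusted p = 0.0213). The Schwann cell markers, which like those of fibroblasts and epithelia bear on Pmp22, summed to 1.05 to 1.44 in controls and 0.864 to 2.36 in mgb-/- kidneys. Of the Schwann cell markers 0 of 5 tested passed at an adjusted or an unadjusted p of 0.05 (limma). The part of these cell types in the changes of Myocd and Pmp22 was not tested.

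In the JNK and p38 cascade, the pathway of Map2k4, 1 of 15 tested genes rose and 1 fell, with a median of -0.14. That share is near the 12.4% of all genes that passed. Jun, the transcription factor that JNK phosphorylates, rose by 1.49 (SE 0.22, adjusted p = 0.000514), and Mapk14, the p38 alpha kinase, fell by 0.46 (SE 0.12, adjusted p = 0.0190). In the assembly of cytochrome c oxidase, the pathway of Cox10, 6 of 15 fell and none rose, with a median of -0.30. Cox18 fell by 0.60 (SE 0.12, adjusted p = 0.00495), Taco1 by 0.74 (SE 0.17, adjusted p = 0.0086), Cox15 by 0.62 (SE 0.16, adjusted p = 0.0148) and Lrpprc by 0.54 (SE 0.15, adjusted p = 0.0252). Cox15 takes the heme O that Cox10 makes to heme A. Under each other scaling 4 of the 15 fell, and the list median stayed below that of all genes.

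For heparan sulfate, 2 of 15 tested genes rose and none fell, again near the 12.4% of all genes, with a median of 0.0012. The 2 called, Sulf2 (0.62, SE 0.10, adjusted p = 0.000972) and Sulf1 (0.98, SE 0.29, adjusted p = 0.0291), are extracellular enzymes that remove 6-O-sulfate. No sulfotransferase of the list passed. In the myelin list, 2 of 8 rose, Mbp (0.74, adjusted p = 0.0223) and Mal (0.51, adjusted p = 0.0287), with a median of 0.37. Under scaling by the median none of the heparan sulfate or myelin genes passed. Mal is also made by tubule epithelium of the kidney. Of the axonemal genes 9 were tested, with a median of 0.23. Tekt2 rose (0.78, adjusted p = 0.0107). Dnah5 was also called, but its probe was well above background on 5 of 6 control and 4 of 18 mgb-/- arrays, so it was tested because of the controls. Its fitted change of -1.45 (adjusted p = 0.0454) ran from -1.78 to -0.27 over the alternatives and lost its call in 21 of 37. Of 5 tRNA processing genes 0 passed (limma, 0 at an unadjusted p under 0.05), at a median change of -0.10. Over all lists 19 of 88 genes passed, Dnah5 included, and 9 to 11 without control replicate 1, 2, 3 or 4. The share of all genes that passed in these fits is not given.

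**Figure D5:**
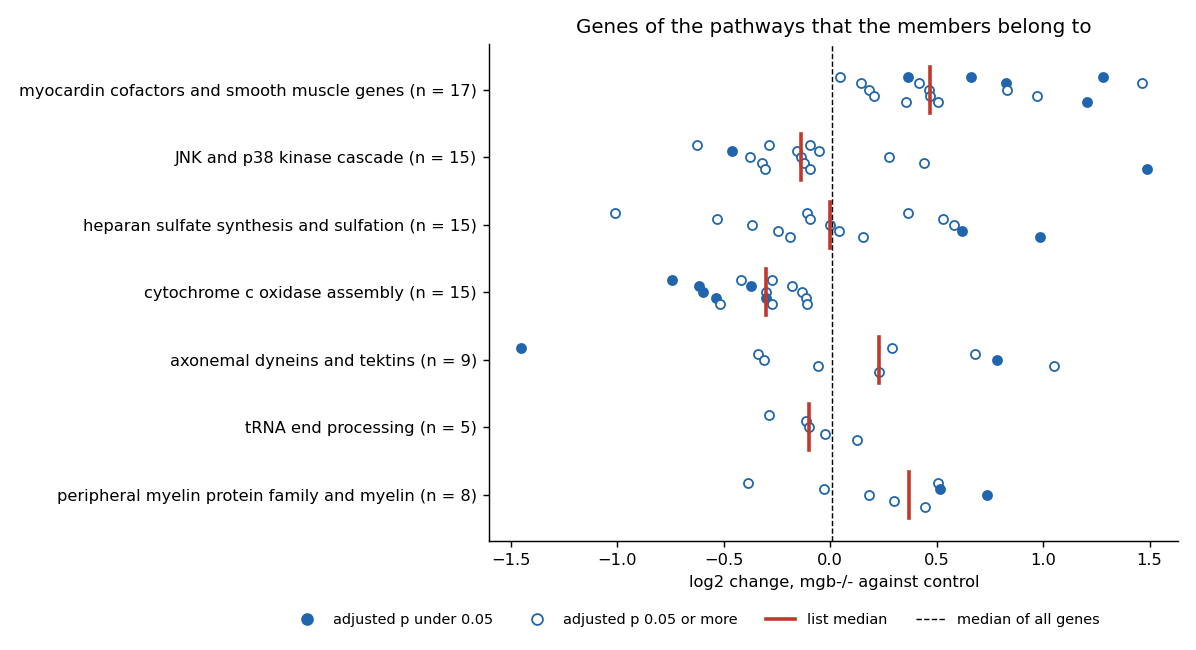
Log2 change between mgb-/- and control kidneys (horizontal axis) of each tested gene of 7 lists, filled where the adjusted p was under 0.05, with the list median as a red bar and the median of all genes as a dashed line. The smooth muscle list lies to the right with a median of 0.47 and the cytochrome c oxidase list to the left with a median of -0.30.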

How the data were processed

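The authors deposited Agilent Feature Extraction 10.10 output of 24 one-colour arrays (annotation grid on mm9), 1 whole kidney each, on 3 slides that each held 2 control and 6 mgb-/- kidneys. The processed signal is an intensity from which the software had subtracted background and spatial trend. A deposited table of whole-number intensities normalized between arrays by a method not given in the sources used here, and the median signal and background intensities, served as alternatives.

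The deposited processed signal was converted to log2 and each array's 75th percentile was subtracted. Spots flagged as outliers were left out and spots of a probe were averaged. A probe was kept when at least 5 arrays read it well above background (38848 probes), and the kept probes were fitted in limma 3.58.1 under R 4.3.3 (lmFit, eBayes), once with 2 and once with 4 groups, with Benjamini-Hochberg adjustment, and a call was an adjusted p under 0.05. The number of arrays limits the precision. Symbols and gene order came from RefSeq (GRCm38.p6), which named 26762 probes. No sources pair gene positions with the grid's build, so no gene coordinates are given apart from the promoter windows.

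Named were the 10 members, the genes between them, up to 4 called genes per list by adjusted p, and the 5 most and 3 least correlated genes. The result of 1 list of 4 genes, which is counted in the total over lists, is not reported here. Members and lists were chosen with earlier results of these data known. The fit was tested on simulated data. Alternatives were other scalings and normalizations, filters, slide or replicate number as a block, array weights, thresholds and leaving out kidneys.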

Additional observations from a re-analysis of the deposited data

Results flagged for a closer look

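Of 36 groups of kidneys tested for a value that stands apart from its group (9 probes in 4 groups), 2 held one, both for Myocd. Chance alone flags about 1 in 20 such groups. In control replicate 6 the Myocd level was -2.29, and the nearest of the other 5 controls read -4.19, a gap of 0.755 of the group's range. In severe replicate 6 the level was -4.20, and the nearest of the other 5 severe kidneys read -3.11, a gap of 0.716 of the range. Each kidney pulls the severe difference from control towards 0.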

How the results depend on the processing

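Over single genes, 2234 of 2525 values kept their direction and their side of the threshold under the alternatives, 221 lost their call, 34 gained one and 36 changed sign. Many of these values were not called in the main fit and so could not lose a call. Of called ones, Pmp22 probe 1 lost its call in 22 of 38 alternatives, Pmp22 probe 2 in 5 of 37 and Jun in 0 of 38. Pmp22 probe 2 and probe 1 stayed higher, and both Map2k4 probes lower, in mgb-/- kidneys under every alternative run. The count of called member probes over all mgb-/- kidneys, 2 in the report, was 1 when scaled by the median, with no filter on dim probes, with the brightest probe per gene, with slide as a block and without both kidneys with adrenal gland markers (chosen after seeing the data). It was 0 at a minimum of 2-fold and 5 with array quality weights, and 0 to 3 when a kidney was left out. In severe kidneys the count, also 2, was 1 when scaled by the median or on probes detected on all arrays (chosen after seeing the data), with no filter, with the brightest probe per gene and with slide as a block. It was 0 at 2-fold or with only the compared groups, 4 with array weights, 5 at an adjusted p of 0.1, and 1 to 5 without a kidney (5 without severe replicate 6). Counts of 0 became 4 with array weights and 2 with only the compared groups in mild, and 2 with array weights or without moderate replicate 5 in moderate kidneys, where leaving out a kidney gave 0 to 2. For these counts and those below, the share of all probes that passed is given only for the fit without control replicate 6. The other counts therefore stand without a background.

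Of the genes around the members (7) 12 passed with array weights, 2 at 2-fold and 2 to 8 without a kidney. Of the lists (19) 10 passed when scaled by the median, 39 with array weights, 4 at 2-fold and 9 to 26 without a kidney. Replicate numbers in the labels are not stated to pair kidneys, and their deviations did not correlate throughout (33 pairs, -0.521 to 0.648, median 0.0103, 7 of 24 kidneys best with their own number). With the replicate number as a block, 0 member probes passed over all mgb-/- and 1 in severe kidneys, 2 genes around the members and 9 list genes.

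Sign changes were of values near 0, and none passed with its sign changed, though Arhgap44 in severe kidneys passed with its sign kept under normexp (0.20, adjusted p = 0.0398). Myocd in mild kidneys became -0.0888 under quantile normalization, -0.0878 scaled by the median, -0.0585 under normexp, -0.0712 with the authors' table and -0.26 with array weights, and ran from -0.0894 to 0.42 without a kidney. Arhgap44 in moderate kidneys became 0.0417 under quantile normalization, 0.0849 under normexp, 0.0786 with the authors' table and 0.0755 on probes detected on all arrays. It became 0.0297 with array weights, 0.0014 with slide as a block and 0.0154 without both adrenal-marked kidneys, and ran from -0.0341 to 0.0375 without a kidney. When scaled by the median it became -0.0975 over all mgb-/-, -0.10 in mild and -0.0543 in severe kidneys, 2810001G20Rik became -0.0909 and Zkscan6 -0.14. The gene 2810001G20Rik was -0.0189 under normexp and -0.0167 with the authors' table, and Zkscan6 ran from -0.0355 to 0.0498 without a kidney. Hs3st3a1 in moderate kidneys became 0.031 on probes detected on all arrays and 0.035 with array weights, and ran from -0.21 to 0.0555 without a kidney. Scaling by the median moved the median change of all probes from 0.015 to -0.14 and the share of calls that were higher from 39.7% to 18.6%, and scaling on probes detected on all arrays moved that share to 55.1%. The causes were not tested.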
